A study of Mus musculus with 2 samples.

Results

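Genes of programmed cell death were read on the arrays of CH cells, named PlCH cells in the sample labels, which are small cells sorted from mouse blood by their lack of CD45 and of lineage antigens. The 46 genes chosen are members of the Bcl2 family, caspases and the proteins that start, carry out or restrain their work. A gene was kept where a probe set, the group of short oligonucleotides that reads a transcript, was annotated to it alone. This left 43 of the 46 genes, out of 18193 genes on the array, with 102 probe sets. Bax, Bnip3l and Ripk1 had no such probe set and have no level under this rule. The RNA came from 2 separate pools of untreated C57bl/6 mice of both sexes, with 15 mice in each pool and an adult age of 7 months per the labels, while the general methods of the paper give younger mice. Each pool was hybridized to 1 Affymetrix whole-genome mouse array, and the authors deposited log2 signals. With 1 group of 2 arrays no contrast between conditions exists, so levels are given on both arrays and set against a limit of 5 (log2). The methods drop genes that stay under this value in all their samples before clustering, and its use as a limit for single genes is a choice made here.

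Apoptosis can start at the mitochondrion or at the cell surface. At the mitochondrion, BH3-only proteins sense stress and oppose the survival proteins of the Bcl2 family, and the effectors Bax and Bak open the outer membrane once they are free to do so. Cytochrome c then leaves the mitochondrion and binds Apaf1, which activates caspase 9, whereas ligands such as Fas ligand act through receptors at the surface and activate caspase 8. Inhibitor of apoptosis proteins and the caspase 8 regulator cFLIP hold both routes in check.

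The arrays correlated closely over 45037 probe sets, which are not independent replicates (Pearson's r = 0.997), and their log2 difference had an SD of 0.20. Ptprc, which encodes CD45, was at 4.95 on array 1 and 5.24 on array 2. That is not distinguishable from the limit (adjusted p = 0.36 from limma). Of the other cell types that a blood sort could hold, erythroid genes were above 5 on both arrays in 0 of 4 cases (4.22 to 4.91), leukocyte genes in 2 of 6 (3.85 to 6.61, with Cd3e the highest) and platelet genes in 5 of 5 (5.98 to 7.18). The 6 mesenchymal genes (7.47 to 14.27), the 4 pluripotency genes (7.11 to 9.49) and the 4 epithelial genes (9.10 to 11.87) were all above it. The part of any of these cells in the levels below was not tested. In pooled RNA, fewer cells of a type and less RNA per cell cannot be told apart.

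Nearly all apoptosis genes were above the limit in CH cells. With the highest probe set standing for each gene, 40 of 43 genes were above 5 on both arrays (93.0%), against 71.2% of all genes. The same 40 of 43 passed limma's test above 5 (adjusted p under 0.05), which 69.1% of all genes passed. The exceptions were Bcl2l10, a Bcl2 relative best known from ovary and oocytes, and the surface receptor Fas with its ligand Fasl. Above a limit of 8 were 26 of the 43 genes (60.5%), beside 37.0% of all genes. The median level was 8.38 for the apoptosis genes and 6.84 for all genes. The apoptosis genes had more probe sets each than the average gene, 2.37 against 1.92, which raises the level of the highest one. Among genes read by 1 probe set alone, 13 of 15 apoptosis genes were above 5, beside 56.7% of all such genes. Chemosensory receptor genes, which serve as background because they detect smell, taste and pheromones, were above 5 in 13 of 76 cases, with the highest at 6.92, so background signal can also exceed 5. The limit of 6 and the 95th percentile of the chemosensory probe sets (6.04) each left 38 of the 43 apoptosis genes, beside 57.8% and 57.3% of all genes. Limma placed the 3 exceptions below 5, as it did 23.6% of all genes. Signals of different probe sets also carry the affinity of their probes, so an order of genes here is one of signals and not of transcript amounts.

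**Figure D1:**
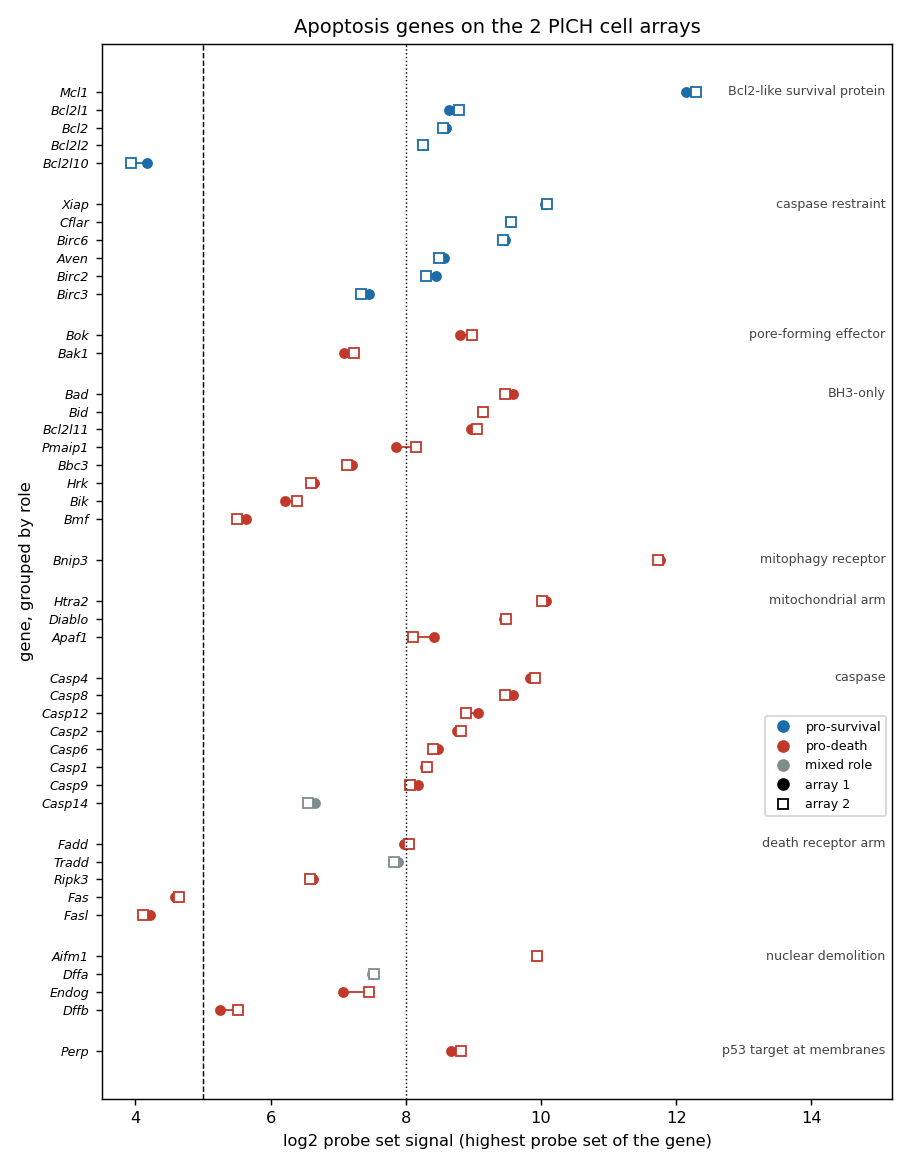
Log2 signal of the highest probe set of each of 43 apoptosis genes (horizontal axis), grouped by role from top to bottom, with a filled circle for array 1 and an open square for array 2, coloured by side. Vertical lines stand at 5 (dashed) and at 8 (dotted). Bcl2l10, Fas and Fasl lie left of 5 on both arrays, while Mcl1 lies near 12.23 and Bnip3 near 11.75.

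The promoters of 4 genes are shown because they span the range of levels, with Mcl1 and Bnip3 at the top, Casp1 just under the median of the apoptosis genes and Fasl below the limit. Each window holds 250 bases before and 50 bases after a transcript start of the RefSeq annotation, in the direction of the gene, and capitals mark the motifs searched on both strands. The TATA box was searched as TATAAA, which 13.6% of all 32851 windows hold, and the GC box as GGGCGG, which 35.7% hold. The core of the hypoxia response element was searched as ACGTG, found in 19.6% of windows. The windows on GRCm38.p6 are chr3:95658471-95658770 (plus strand) for Mcl1, chr7:138909457-138909756 (minus strand) for Bnip3, chr9:5298267-5298566 (plus strand) for Casp1 and chr1:161788446-161788745 (minus strand) for Fasl.
Mcl1: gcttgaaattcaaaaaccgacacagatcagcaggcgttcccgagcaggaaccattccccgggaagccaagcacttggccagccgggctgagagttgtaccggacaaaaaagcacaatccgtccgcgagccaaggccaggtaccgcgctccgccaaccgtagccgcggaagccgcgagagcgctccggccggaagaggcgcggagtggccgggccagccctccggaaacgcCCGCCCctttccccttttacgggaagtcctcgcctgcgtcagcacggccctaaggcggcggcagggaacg
Bnip3: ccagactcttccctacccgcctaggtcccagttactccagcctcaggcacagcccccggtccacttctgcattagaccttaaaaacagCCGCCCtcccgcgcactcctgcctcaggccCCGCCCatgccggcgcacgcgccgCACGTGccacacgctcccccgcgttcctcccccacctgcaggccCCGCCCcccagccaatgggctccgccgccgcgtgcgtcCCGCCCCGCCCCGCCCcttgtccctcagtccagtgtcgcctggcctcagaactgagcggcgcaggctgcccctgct
Casp1: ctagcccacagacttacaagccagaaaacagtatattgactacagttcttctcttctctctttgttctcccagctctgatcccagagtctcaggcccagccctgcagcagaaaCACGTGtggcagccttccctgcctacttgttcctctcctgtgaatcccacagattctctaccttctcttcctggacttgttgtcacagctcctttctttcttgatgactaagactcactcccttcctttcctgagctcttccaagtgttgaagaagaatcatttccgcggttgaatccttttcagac
Fasl: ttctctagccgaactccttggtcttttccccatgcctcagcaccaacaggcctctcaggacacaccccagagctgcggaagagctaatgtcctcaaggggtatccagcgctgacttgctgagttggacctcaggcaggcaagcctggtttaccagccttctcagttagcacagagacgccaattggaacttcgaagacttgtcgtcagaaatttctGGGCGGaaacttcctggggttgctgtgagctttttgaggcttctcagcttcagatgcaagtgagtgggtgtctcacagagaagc
The Mcl1 window held 33 CpG dinucleotides and 1 GC box, and it starts from a transcript 1777 bases inside the annotated gene. The Bnip3 window held 27 CpG and 6 matches to the GC box, some of which overlap. It also held 2 matches to ACGTG, which are the 2 strands of 1 CACGTG. The Casp1 window had 3 CpG, no GC box and 1 such CACGTG, and the Fasl window had 7 CpG and 1 GC box. TATAAA occurred in none of these 4 windows. A match is a stretch of letters and says nothing of binding in these cells.

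Survival proteins of the Bcl2 family were above the limit in 4 of 5 cases, a share close to the 71.2% of all genes. Mcl1, a short-lived survival protein that holds Bak and several BH3-only proteins, had a signal of 12.15 on array 1 and 12.30 on array 2. All 6 of its probe sets were above 5, from 9.97 to 12.23 in the mean of both arrays. The adjusted p against 5 for its highest probe set was 8.9e-08 (limma). Bcl2l1, which encodes the survival protein Bcl-xL, was at 8.64 and 8.78, Bcl2, the founder of the family, at 8.60 and 8.55, and Bcl2l2, which encodes Bcl-w, at 8.26 and 8.25. These 3 genes thus had closely matching signals on both arrays, but each was also read below 5 by other probe sets. Bcl2l10 was at 4.17 and 3.94 with its sole probe set, below 5 on both arrays (limma, adjusted p = 1.8e-04).

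The proteins that restrain caspases were above 5 in 6 of 6 cases, beside 71.2% of all genes. Xiap, which binds and blocks active caspases directly, had signals of 10.07 and 10.08. Cflar, which encodes cFLIP and limits the activation of caspase 8, was at 9.54 and 9.56. Birc6, a very large inhibitor of apoptosis that also carries ubiquitin to its targets, was at 9.47 and 9.43. All 3 differed between arrays by less than 0.04 with these probe sets. Only 3 of 7 probe sets of Xiap and 3 of 6 of Birc6 were above 5 on both arrays. Aven, a partner of Bcl-xL and Apaf1, was at 8.56 and 8.49, and Birc2 and Birc3, the ubiquitin ligases cIAP1 and cIAP2 of TNF receptor signalling, were at 8.45 and 8.30 and at 7.45 and 7.34. Birc3 was the only one of these 6 not above 8, a limit that 37.0% of all genes passed.

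Of the effectors that form pores in the mitochondrial membrane, both that were measured were above 5, beside 71.2% of all genes. Bok, a Bcl2 relative of the effector kind, had signals of 8.81 and 8.98, and Bak1, the effector that resides on mitochondria, had 7.08 and 7.23. A further probe set of Bak1 was at 5.24 and 5.51.

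All 8 BH3-only genes, which encode the sensors of cell stress, were above 5, beside 71.2% of all genes. Above 8 on both arrays were 3 of the 8 (37.5%), about the share of all genes (37.0%). Bad, which growth factor signalling holds inactive by phosphorylation, was at 9.58 and 9.47. Bid, which caspase 8 cleaves to link the surface route to mitochondria, was at 9.13 and 9.15, and Bcl2l11, which encodes Bim, was at 8.96 and 9.05. Bim was read above 5 by all 5 of its probe sets, the lowest at 6.22. The p53 targets Pmaip1 (Noxa) and Bbc3 (Puma) were at 7.85 and 8.15 and at 7.20 and 7.13. Hrk, best known from neurons, was at 6.64 and 6.60, and Bik, a sensor at the endoplasmic reticulum, was at 6.22 and 6.38. Bmf, which is tied to the cytoskeleton and to loss of attachment, was at 5.63 and 5.51 (adjusted p = 8.2e-04 from limma), a level that chemosensory receptor genes also reached. Its sole probe set not ending in _s_at, _x_at or _a_at was at 4.27 and 4.28. Bnip3, a receptor for the removal of mitochondria that hypoxia induces, had signals of 11.75 and 11.74, almost the same on both arrays, from its sole probe set.

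The mitochondrial proteins that act after the membrane opens were above 8 in 3 of 3 cases, beside 37.0% of all genes. Htra2, a protease that can cut inhibitors of apoptosis, had signals of 10.07 and 10.02, and Diablo (Smac), which displaces these inhibitors from caspases, had 9.46 and 9.49. Apaf1, the scaffold of the apoptosome, was at 8.42 and 8.11, one of the wider gaps between the arrays. Its other probe set was close to the limit at 5.27 and 5.11.

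Every caspase measured was above 5, beside 71.2% of all genes, and 7 of 8 were above 8 on both arrays, beside 37.0%. The initiators of apoptosis Casp8 and Casp9 had signals of 9.59 and 9.46 and of 8.18 and 8.06, and Casp2, an initiator linked to DNA damage and to chromosome number, had 8.76 and 8.81. Casp6, an executioner that cuts nuclear lamins, was at 8.48 and 8.40, with its other probe set at 4.25 and 4.37. So both a start from the surface and a start from mitochondria had their initiator caspase among the genes above 8. The inflammatory caspases and their neighbour were above 8 as well. Casp4, the sensor of bacterial lipopolysaccharide called caspase 11 in mouse, was at 9.83 and 9.92. Casp12 was at 9.07 and 8.90, and Casp1, the caspase of the inflammasome, was at 8.29 and 8.32. Casp14, which works in the cornification of skin rather than in cell death, was at 6.65 and 6.55 with 1 probe set and at 3.95 and 4.13 with the other.

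Genes of the death receptor route were above 5 in 3 of 5 cases, near the share of all genes (71.2%), and above 8 on both arrays in 0 of 5, beside 37.0% of all genes. With 5 genes, these counts do not set the route apart. Fadd, the adaptor that joins Fas to caspase 8, was at 7.98 and 8.04, and Tradd, the adaptor of TNF receptor 1, at 7.88 and 7.83. Ripk3, the kinase of necroptosis, was at 6.63 and 6.58. Fas itself lay below the limit at 4.59 and 4.65 (adjusted p = 0.0038 from limma), with 1 probe set. Fasl, made mostly by activated T cells and natural killer cells, was at 4.22 and 4.12 with its higher probe set and at 3.66 and 4.02 with the other (adjusted p = 1.4e-04 from limma for the higher). Thus Fadd and Casp8 were above the limit, and Fas and Fasl were not, as read by these probe sets. Other receptors, among them Tnfrsf1a, are given below with the other genes of cell death. Among the genes of cytotoxic cells, Nkg7 was at 5.06 and 5.24, Gzmb at 5.03 and 4.86 and Prf1 at 4.93 on both arrays. Of the T cell genes among the leukocyte genes, Cd3e was higher at 6.65 and 6.56, whereas Cd5 was below 5 on both arrays. Whether the sort held such cells, and their part in the level of Fasl, was not tested.

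The proteins that take the nucleus apart, counted with the inhibitor Dffa, were above 5 in 4 of 4 cases, beside 71.2% of all genes. Above 8 on both arrays was 1 of the 4 (25%), beside 37.0% of all genes. Aifm1, a flavoprotein of the mitochondrial intermembrane space that can move to the nucleus, was at 9.95 on both arrays. Dffa, which encodes the chaperone and inhibitor ICAD, was at 7.50 and 7.54, and Endog, a mitochondrial nuclease, at 7.07 and 7.46. Dffb, the nuclease CAD that ICAD holds inactive, was at 5.25 and 5.51, the closest to the limit among the genes above it (adjusted p = 0.010 from limma). Perp, a p53 target that also belongs to desmosomes, was at 8.67 and 8.81.

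Set side by side, pro-survival genes were above 5 in 10 of 11 cases and pro-death genes in 27 of 29, beside 71.2% of all genes. The pro-survival genes are the survival proteins of the Bcl2 family and the proteins that restrain caspases. The pro-death side holds the other genes except those of mixed role. It thus also counts Bnip3, Casp1, Casp4 and Casp12, which are described above by roles other than apoptosis or by their place beside such genes. Casp14, Dffa and Tradd were left out of both sides because their roles are mixed, and all 3 were above 5. Above 8 were 9 of 11 pro-survival genes (81.8%) and 17 of 29 pro-death genes (58.6%), beside 37.0% of all genes. The medians were 8.57 for the pro-survival genes and 8.30 for the pro-death genes, the latter being the level of Casp1. This order turned round with the choice of probe set. Taking each gene at its median probe set, the pro-survival median was 6.27 and the pro-death median 7.47, and with the lowest probe set the values were 4.61 and 6.71. The medians of all genes in these settings were 6.04 and 5.12. Above 5 by the lowest probe set were 30 of 43 apoptosis genes (69.8%), beside 50.4% of all genes. By side these were 5 of 11 pro-survival genes (45.5%) and 24 of 29 pro-death genes (82.8%). Xiap had 7 probe sets, Mcl1 and Birc6 had 6 each and Bcl2 and Cflar 5 each, whereas no pro-death gene had more than 5. More probe sets raise the highest and lower the lowest of a gene, so both orders also carry the number of probe sets. Its part in them was not tested. Among probe sets not ending in _s_at, _x_at or _a_at, 34 of 39 apoptosis genes were above 5, beside 67.9% of all genes with such probe sets. The sides were not tested against each other.

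**Figure D2:**
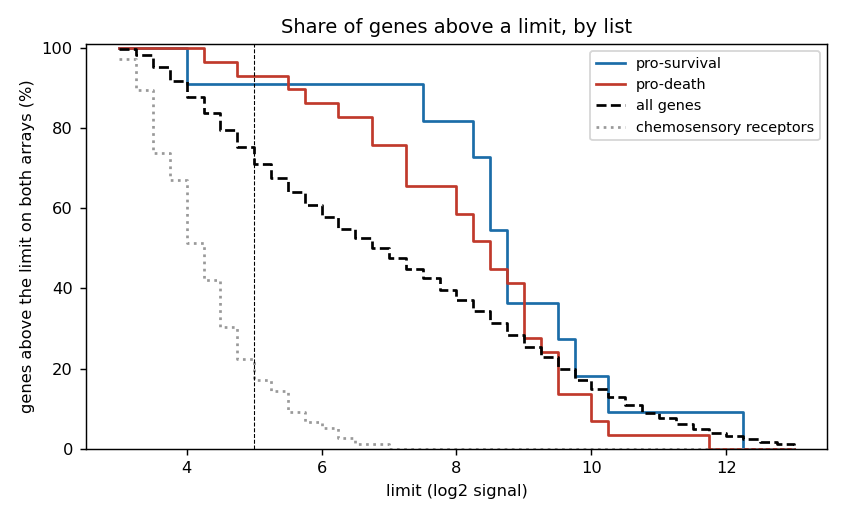
Share of genes above a limit on both arrays (vertical axis, percent) as the limit moves along the log2 scale (horizontal axis), with solid lines for 11 pro-survival and 29 pro-death genes, a dashed line for all 18193 genes and a dotted line for 76 chemosensory receptor genes. At a limit of 8 the shares are 81.8% of pro-survival genes, 58.6% of pro-death genes and 37.0% of all genes, and no chemosensory receptor gene remains.

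Probe sets of the same gene often differed by several log2 units. Of 102 apoptosis probe sets, 79 (77.5%) were above 5 on both arrays, beside 64.8% of all probe sets that name 1 gene. Of 28 genes with several probe sets, 17 had even their lowest one above 5, beside 44.0% of all such genes. The 4 widest spreads belonged to survival genes. Xiap had probe sets from 3.61 to 10.08, with 3 of 7 above 5, and Birc6 from 3.33 to 9.45, with 3 of 6 above 5. Bcl2 ranged from 3.85 to 8.57 and Bcl2l1 from 3.97 to 8.71. Cflar had all 5 probe sets above the limit, from 5.35 to 9.55, and Casp9 all 3, from 6.71 to 8.12. Which transcript forms the probe sets read was not tested.

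**Figure D3:**
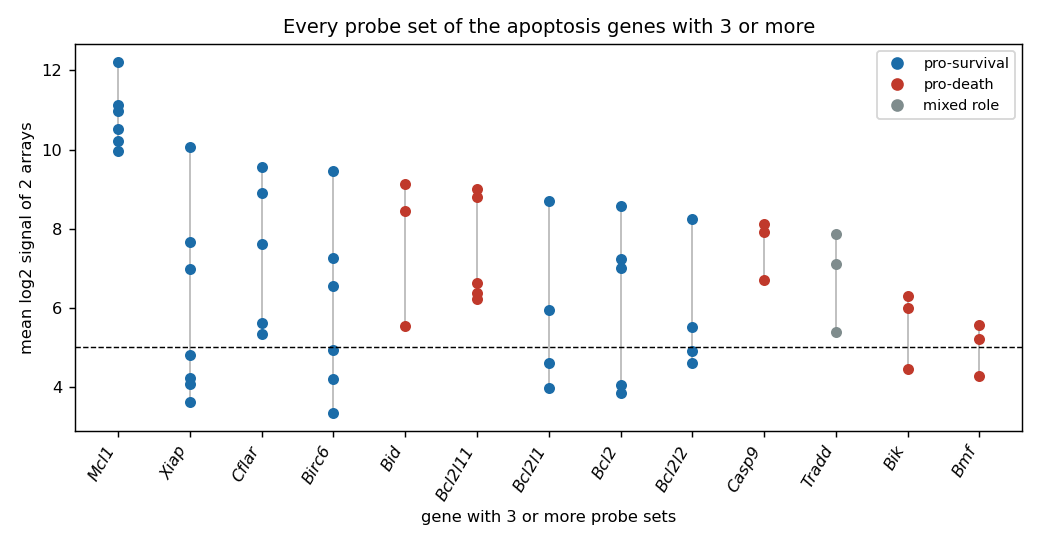
Mean log2 signal of both arrays (vertical axis) for every probe set of the 13 apoptosis genes that have 3 or more, with 1 point for each probe set, coloured by side and joined by a grey line within a gene. The dashed line marks 5. All probe sets of Mcl1 lie at 9.97 or above, whereas those of Xiap run from 3.61 to 10.08.

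The arrays differed little for these genes. With the highest probe set of each gene, the median absolute log2 difference was 0.08 for apoptosis genes and 0.10 for all genes, and array 1 was the higher in 22 of 43 cases. The largest differences, array 1 minus array 2, were -0.38 for Endog, 0.31 for Apaf1, -0.30 for Pmaip1 and -0.26 for Dffb. None of these placed the arrays on opposite sides of 5. Among all 102 probe sets, 6 differed by over 0.4 (5.88%), beside 5.31% of all probe sets that name 1 gene. They were 3 of Birc6, at 6.23 and 6.87, at 4.66 and 5.21 and at 3.84 and 4.56, and 1 each of Bcl2l1 (6.30 and 5.61), Bcl2 (4.11 and 3.59) and Bmf (4.96 and 5.47). All 6 had means under 7, a range in which they made up 6 of 50 apoptosis probe sets (12%), beside 7.93% of all probe sets that name 1 gene.

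**Figure D4:**
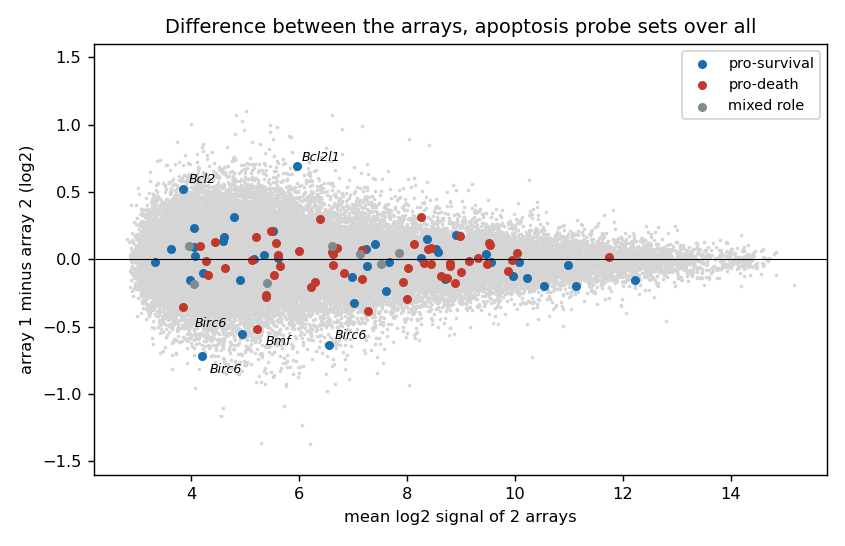
Log2 difference, array 1 minus array 2 (vertical axis), against the mean log2 signal of both arrays (horizontal axis), with grey points for 45037 probe sets and coloured points for the 102 of apoptosis genes. The 6 named points differ by over 0.4, and the largest is a probe set of Birc6 at -0.72.

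Promoter windows were found for 37 of the 43 genes, and where a gene had several the one with the most CpG was used. Apoptosis genes had at least 10 CpG in 29 of 37 windows (78.4%), beside 69.8% of 14452 genes. Of these 29 genes, 28 were above 5, beside 85.2% of all genes with such windows. Of the 8 apoptosis genes with fewer CpG, 7 were above 5 (87.5%), beside 41.7% of all genes with windows of this kind. Fasl was the exception, and the others were Casp1, Casp12, Casp4, Casp8, Casp14, Birc3 and Bcl2l2. The Casp8 window lies 7269 bases inside the annotated gene, and with windows within 300 bases of the outermost start the count was 6 of 7, beside 38.7%. Casp1, Casp4 and Casp12, with 3, 5 and 3 CpG, are neighbours on chromosome 9. Fas had 14 CpG and Dffb 32, and both were near or below the limit, so a CpG-rich window did not go with a high level in every case. The boundary of 10 CpG was set with the levels known, and no test was made.

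**Figure D5:**
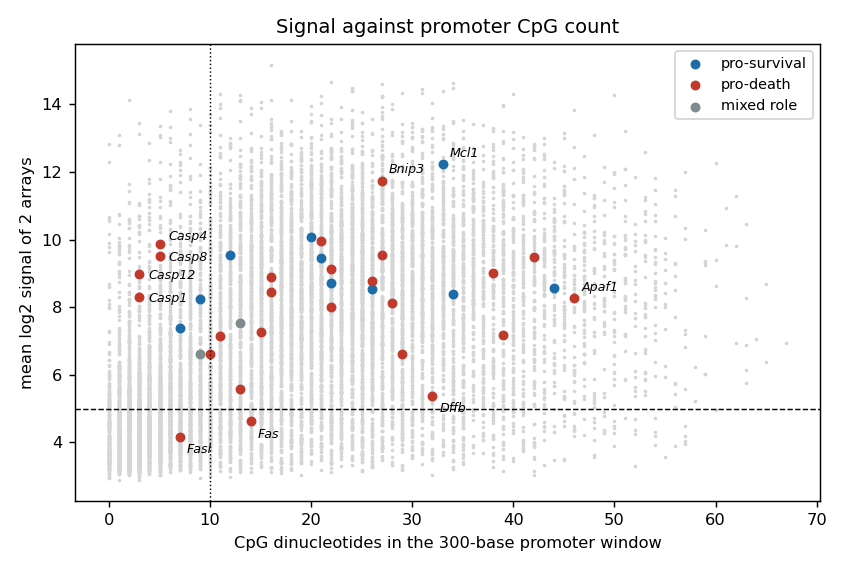
Mean log2 signal of both arrays (vertical axis) against the number of CpG dinucleotides in a 300-base promoter window (horizontal axis), with grey points for 14452 genes and coloured points for 37 apoptosis genes. Lines stand at a signal of 5 (dashed) and at 10 CpG (dotted). Casp1, Casp4, Casp8 and Casp12 lie left of the dotted line at levels of 8.30 to 9.88, and Fasl lies there at 4.17.

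Other genes of cell death, from a list of 52 with 45 measured, were above 5 in 39 cases (86.7%), again beside 71.2% of all genes, and limma called the same number. The 6 genes with the highest signals are given first. Cycs, which encodes cytochrome c, was at 13.21 and 13.23, and the channels of the outer mitochondrial membrane Vdac1 and Vdac2 were at 12.52 and 12.49 and at 12.48 and 12.43. Bcap31, a caspase 8 substrate of the endoplasmic reticulum, was at 12.10 and 12.06, Siva1 at 11.79 and 11.76 and Tmbim6 (Bax inhibitor 1) at 11.44 and 11.41. The 6 with the lowest signals follow. Tnfrsf25, a death receptor of T cells, was at 4.65 and 4.69, and Tnfsf10, the ligand TRAIL, at 4.80 and 4.86. Bcl2l15 was at 4.96 and 4.74 and Trp73, the p53 relative, at 5.01 and 4.92, beside Gzmb and Prf1 given above. Of these 6, limma placed Tnfrsf25 below 5 (adjusted p = 0.0062), and the others were not distinguishable from it. Tnfrsf1a, TNF receptor 1, was at 10.25 and 10.18, while Tnfrsf10b, the TRAIL receptor, was at 5.81 and 5.88 and Tnf at 5.80 and 5.90, levels that chemosensory receptor genes also reached. The last 3 genes were named after their values were seen.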

How the data were processed

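RNA of PlCH cells was hybridized to 2 arrays, 1 group with 2 replicates, and the number of arrays limits the precision. The deposited values are log2 signals, 1 per probe set and array. According to their methods, the authors ran RMA, with quantile normalisation, jointly on these arrays and 5 public series. Whether this run gave the deposited log2 signals, and the tool versions, are not given in the sources used here. Such normalisation fixes the distribution of each array, so only relative levels are kept.

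Of 45101 probe sets, 64 controls were left out. Those naming 1 gene (34945) were used, those naming several (932) or not listed (9160) were not. Entrez identifiers matched 34741 of them to GRCm38.p6, which changed 0 symbols. Each gene was represented by its probe set of highest mean, and a gene was above the limit when that probe set exceeded 5 on both arrays. Means were set against 5 with limma 3.58.1 in R 4.3.3, in an intercept-only model with empirical Bayes moderation. The test was two-sided, and p-values were adjusted by Benjamini-Hochberg across all 45037 probe sets, with calls at 0.05. The count by limma was tested on simulated data over 45037 probe sets, with 100 raised to 1 and 100 to 2 above the limit. Of these, 98% and 100% were recovered, and 0.0929% of 18295 at or below the limit were called. Those 18295 kept their own means, and a call needed a mean above 5, so 0.0929% is not an error rate at the limit itself. Noise was shuffled over probe sets, whereas in the data differences over 0.4 were more frequent at means under 7 (7.93%) than over all (5.31%). No origin from separate cultures or animals beyond the pools is stated, so p-values measure the spread between these arrays.

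All 46 genes are named. Of the other cell death genes, the 6 highest and 6 lowest are named, with a few more named after their values were seen. Members, lists and roles were chosen with earlier results of these data known. Alternatives were limits of 6 and 8 and 6.04, which is the 95th percentile of 84 probe sets of chemosensory receptors, limma's call, an intensity trend, quantile normalization, each array left out, the median or lowest probe set, no probe sets ending in _s_at, _x_at or _a_at, and mixed roles counted as pro-death. Promoter windows came from RefSeq (GRCm38.p6). Some genes of the list of other cell death genes are not reported here. Python 3.11.15 with numpy 2.4.6, pandas 2.3.3 and matplotlib 3.10.9 was used.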

Additional observations from a re-analysis of the deposited data

Results flagged for a closer look

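Bnip3l, a relative of Bnip3 that clears mitochondria from maturing red cells, has no probe set of its own and was left out of the counts. Its 3 probe sets also name the pseudogene Bnip3l-ps, and they stand here because their signals, outside the main measurement, exceeded 6.04, the 95th percentile of the chemosensory background, on both arrays. Their means were 10.65, 10.64 and 9.45 (log2), with 10.65 and 10.65, 10.59 and 10.69, and 9.31 and 9.58 on arrays 1 and 2. Which of the 2 genes gives the signal cannot be told apart.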

How the results depend on the processing

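No paired analysis was possible because only PlCH cells were measured. Quantile normalization, limma's call, a limit of 6 and the background limit gave 38 to 40 of 43 apoptosis genes above the limit. By side these settings gave 10 of 11 pro-survival genes and 25 to 27 of 29 pro-death genes. The share of all genes in them was 57.3% to 71.2%. At a limit of 8 the counts were 26 of 43 apoptosis genes (60.5%) and 6737 of 18193 genes (37.0%), since a higher limit admits fewer. By side they were 9 of 11 pro-survival genes (81.8%) and 17 of 29 pro-death genes (58.6%). Without suffixed probe sets (_s_at, _x_at or _a_at), 34 of 39 genes were above 5, beside 67.9% of all genes. Of the 6 fewer, 4 had no other probe set (Aifm1, Aven, Bok and Htra2) and 2, Bmf and Casp14, were below 5. With the lowest probe set, 30 apoptosis genes, 5 of 11 pro-survival and 24 of 29 pro-death genes were above 5, beside 50.4% of all genes. The pro-survival median was 6.27 with the median over probe sets, 4.61 with the lowest and 8.64 without suffixed probe sets. The pro-death median was 7.47, 6.71 and 8.19 in these settings and 8.19 with mixed roles counted in. With either array left out, it was 8.32 to 8.42, and the pro-survival median 8.55 to 8.60. Below 5 with the lowest probe set were Bcl2 (3.85), Bcl2l1 (3.97), Bcl2l2 (4.61), Bik (4.44), Bmf (4.27), Casp6 (4.31), Casp14 (4.04), Xiap (3.61), Birc6 (3.33) and Dffa (3.95). Xiap was at 4.80 with the median over its probe sets, and Bmf and Casp14 were at 4.27 and 4.04 without the suffixed probe sets. The cause was not tested. With either array left out, 43 of 43 levels kept their side of 5. For genes above the limit the rule of both arrays fixes this in advance, and Bcl2l10, Fas and Fasl were below 5 on both arrays.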

Other observations

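Further genes of the list of cell death genes were chosen after their values were seen. Birc5, which encodes survivin, an inhibitor of apoptosis that also serves cell division, was at 11.10 and 11.06 on arrays 1 and 2. Of the p53 circuit, Mdm2, the ubiquitin ligase of p53, was at 10.43 and 10.46, and Trp53inp1, a p53 target, at 10.55 and 10.70. Mlkl, which carries out necroptosis after Ripk3, was at 9.34 and 9.31. Of the inflammasome route that Casp1 and Casp4 serve, Gsdmd, the pore protein that they cut, was at 7.55 and 7.35 and Pycard, the adaptor ASC, at 6.52 and 6.61. All 6 genes were above 5 on both arrays, but they were chosen with these values known, so their count measures nothing. The list they come from had 39 of 45 genes above 5 (86.7%), beside 71.2% of all genes. Trp53, which encodes p53 itself, had no probe set under the rule used here. The p53 relative Trp73 was among the genes with the lowest signals given above.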
